A study of Mus musculus with 8 samples.

Results

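Myocd, Synpo2 and Notch3 are 3 genes known from smooth muscle, out of 8741 genes that could be named on the arrays. They were chosen by their measured ratios: among smooth muscle genes, Synpo2 and Notch3 stood out as low and Myocd as high in transgenic lung. Their ratios between transgenic and wild-type lung are therefore given as a description, with no test. Each gene has 1 probe: Myocd (Entrez gene 214384), Synpo2 (Entrez gene 118449) and Notch3 (Entrez gene 18131). The rule sets no threshold, and all 3 gave a usable value on 8 of 8 arrays.

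The samples were lungs of 4 male fra-2 transgenic mice, which carry the AP-1 gene Fosl2 as a transgene, at 14 weeks of age. The only control was RNA pooled from the lungs of 4 wild-type males, equally old. All of these mice had the background C57BL6 x CBA. For every transgenic animal 2 arrays were hybridised against that 1 pool, with the Cy5 and Cy3 dyes exchanged. The promoter that drives the transgene is not given in the sources used here, and the 6- and 10-week mice of the study are not analysed here.

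Values are log2 ratios of transgenic lung over the pool, so 1 is a doubling and -1 a halving. That direction is likely only, from the order of the channels in the labels; with the opposite sign, higher and lower would exchange for every gene below. Gene names rest on an offset of 11 between annotation numbers and rows of the value table. In the 3 stretches of 1000 numbers that hold these genes, 11 gave the best agreement between probes of the same gene among offsets up to 60 either way. The Spearman correlation at 11 was 0.176 around Notch3, 0.203 around Myocd and 0.249 around Synpo2, against at most 0.110, 0.165 and 0.117 at any other offset.

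Myocd encodes myocardin, a coactivator that binds serum response factor (SRF) and switches on contractile genes of smooth muscle and heart through CArG box elements in their promoters. Synpo2 encodes myopodin, an actin-bundling protein of dense bodies and Z-discs that works with filamin, alpha-actinin and the chaperone partner BAG3. Notch3 encodes the Notch receptor of arterial smooth muscle and pericytes. A Jagged or Delta ligand on the neighbouring cell leads gamma-secretase to release its intracellular part. That part joins RBPJ in the nucleus and turns on some Hes and Hey genes.

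The upstream sequences used here held none for Myocd. Those of the 2 low genes are shown because myocardin, MEF2 and AP-1 factors act through short motifs in such regions. Both run 5′ to 3′ on the gene's strand from 250 to 31 bases before the start, from RefSeq on GRCm38.p6: Synpo2 at chr3:123236180-123236399 and Notch3 at chr17:32166921-32167140, both on the minus strand. Capitals mark motif matches.
Synpo2: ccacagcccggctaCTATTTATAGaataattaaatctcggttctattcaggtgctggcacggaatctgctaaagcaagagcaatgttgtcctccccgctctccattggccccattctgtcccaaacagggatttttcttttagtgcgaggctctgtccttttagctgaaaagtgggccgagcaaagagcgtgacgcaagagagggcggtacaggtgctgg
Notch3: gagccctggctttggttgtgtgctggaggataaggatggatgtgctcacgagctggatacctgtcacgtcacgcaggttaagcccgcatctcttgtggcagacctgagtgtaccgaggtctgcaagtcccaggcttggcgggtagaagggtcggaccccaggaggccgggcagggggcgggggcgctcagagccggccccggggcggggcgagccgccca

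Both strands were searched for the CArG box, the MEF2 site, the AP-1 site TGANTCA and the RBPJ site GTGGGAA; the motifs did not overlap in either sequence. The Synpo2 sequence held 1 MEF2 site, CTATTTATAG, at 236 to 227 bases before the start. Of 27025 upstream sequences of this length, 0.422% held a MEF2 site, 1.22% a CArG box, 6.24% the AP-1 site and 4.73% the RBPJ site. The Notch3 sequence held none of the 4 in this window. It was richer in G and C, at 66.8% against 50.5% for Synpo2. A match is a description of letters and does not show binding.

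Myocd was higher in transgenic lung on 8 of 8 arrays. With the transgenic RNA in Cy5 its ratio was 0.87 in mouse 1, 0.87 in mouse 2, 0.68 in mouse 3 and 0.96 in mouse 4. With the dyes exchanged it was 0.63, 0.68, 0.50 and 0.56 in the same order. The 4 mice lay close together, with mouse 3 lowest by a small step. The mouse means were 0.75, 0.78, 0.59 and 0.76, and their mean was 0.72 ± 0.08 (SD, n = 4), which is 1.65-fold higher than the pool.

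Synpo2 was lower on 8 of 8 arrays, by amounts that differed widely from mouse to mouse. On the Cy5 arrays its ratio was -1.10, -1.01, -0.94 and -0.62 in mice 1 to 4, and on the Cy3 arrays -1.25, -0.83, -0.39 and -0.14. Mouse 1 was lowest and mouse 4 highest in both dye orientations. The mouse means were -1.18, -0.92, -0.67 and -0.38, and their mean was -0.79 ± 0.34 (SD, n = 4), or 1.72-fold lower. Mouse 1 alone was 2.26-fold lower and mouse 4 was 1.30-fold lower.

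Notch3 was also lower on 8 of 8 arrays, but the order of the mice was another. Its ratio was -0.37, -0.79, -0.28 and -0.70 on the Cy5 arrays of mice 1 to 4, and -0.63, -1.06, -0.16 and -1.09 on the Cy3 arrays. Mice 2 and 4 were the low ones, and mouse 3 was nearest to the pool in both orientations. The mouse means were -0.50, -0.93, -0.22 and -0.90, and their mean was -0.64 ± 0.34 (SD, n = 4), or 1.55-fold lower.

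**Figure D1:**
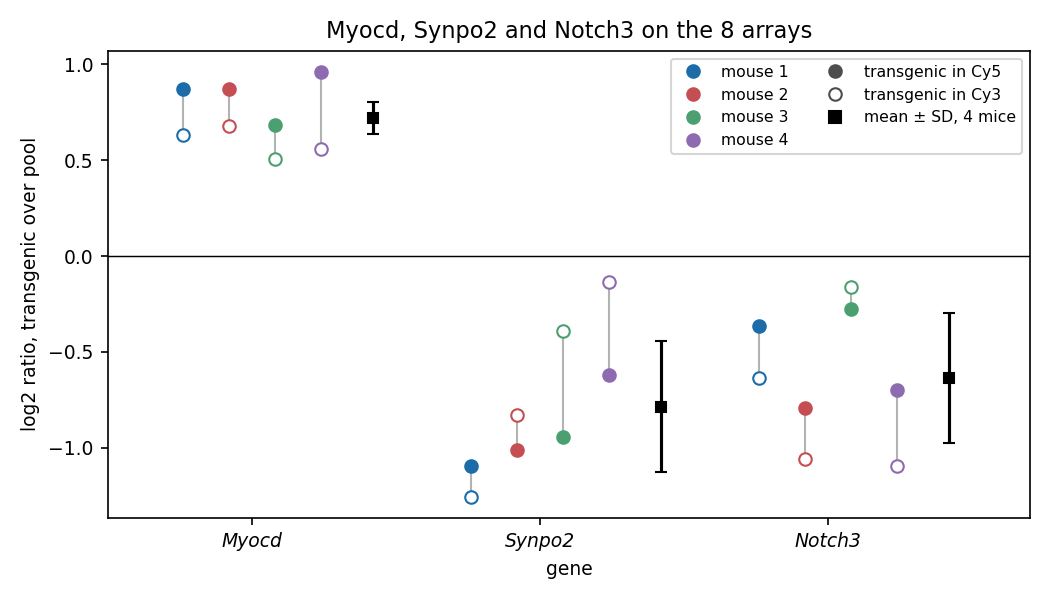
Log2 ratios of transgenic lung over the wild-type pool (vertical axis) for Myocd, Synpo2 and Notch3 in 4 mice; filled points are arrays with transgenic RNA in Cy5, open points arrays with it in Cy3, lines join the 2 arrays of a mouse, and squares with bars are the mean and SD over mice. Every Myocd point lies above 0, from 0.50 to 0.96, and every Synpo2 and Notch3 point below it, with a wider spread.

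Of all 20621 probes with a value in 4 mice, 406 had a mean ratio at or above that of Myocd. At the other end, 382 lay at or below Synpo2 and 776 at or below Notch3. These positions follow from how the genes were chosen.

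The choice named how high or low the ratios were and not their spread between mice, but earlier results of these data were known. The SD over mice of Myocd was among the smaller ones, with 9.21% of probes at or below it. The SDs of Synpo2 and Notch3 were among the larger ones, with 85% and 84.7% of probes at or below them; the median probe had an SD of 0.189. An F test in limma over the 4 mice, with dye orientation as a covariate and fitted to all 20392 probes measured on every array, called 0.986% of them. None of the 3 genes was among these 201 probes. Adjusted p was 0.218 for Notch3, whose mouse means spanned 0.71, 0.286 for Synpo2, which spanned 0.80, and 0.757 for Myocd, which spanned 0.18. Unadjusted p was under 0.05 for 2 of the 3, Notch3 (0.0165) and Synpo2 (0.0363), as it was for 16.0% of all probes.

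The difference between the 2 dye orientations did not pass the test for any of the 3 genes. The Cy5 array of Myocd gave the higher value in 4 of 4 mice, by 0.25 ± 0.10 (SD, n = 4), while 37.3% of all probes had differences of one sign in 4 mice. For Synpo2 the Cy5 array was the lower one in 3 of 4 mice (mean difference -0.27 ± 0.33), and for Notch3 it was the higher one in 3 of 4 (0.20 ± 0.22). By limma on these within-mouse differences, adjusted p was 0.209, 0.298 and 0.335 for Myocd, Synpo2 and Notch3, and unadjusted p was under 0.05 for 0 of the 3 and for 24.1% of all probes. Over all probes 0.0049% passed, which was 1 probe, and 0 without mouse 1. On arrays of a single orientation the mean of Myocd was 0.85 ± 0.12 (Cy5) or 0.59 ± 0.08 (Cy3), a wider step than the span of 0.18 between its mouse means.

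Genes of the smooth muscle contractile apparatus, most of which are known SRF and myocardin targets or their partners, were mostly lower while Myocd was higher. Of 41 listed genes other than the 3, 19 were measured; 11 fell, 1 rose and 7 did not pass, with a median ratio of -0.29. The test was limma on gene-level mouse means against 0, with Benjamini-Hochberg adjustment over 8692 named genes and adjusted p under 0.05. By it 31.9% of all named genes passed, 13.5% as higher and 18.4% as lower, with a median of -0.01. The count of lower genes was 7 without mouse 1 or mouse 3. In whole lung RNA, fewer cells of a type and less RNA per cell cannot be told apart.

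Among the filament genes, Synm, which encodes the intermediate filament protein synemin, had a mean log2 ratio of -1.25 ± 0.22 (adjusted p = 6.7e-04). Myh11, the smooth muscle myosin heavy chain gene, fell by 0.63 ± 0.20 (adjusted p = 0.004). Its ratio was -0.62, -0.41, -0.89 and -0.60 in mice 1 to 4, so mouse 3 was lowest where Notch3 was nearest to the pool. The Myh11 probe lies in a stretch of annotation numbers where 11 was not the best offset, so its name is less certain. Lmod1, which encodes the actin filament nucleator leiomodin 1, fell by 0.37 ± 0.04 (adjusted p = 0.0084), and the mice lay between -0.40 and -0.32. The enteric smooth muscle actin gene Actg2 fell by 0.32 ± 0.01 (adjusted p = 0.0129), a call lost without mouse 1 (adjusted p = 0.0607) and on the Cy3 arrays alone (adjusted p = 0.0851).

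Genes of other parts of the apparatus differed in size and in how firm the value was. The desmin gene Des fell by 0.37 ± 0.11 (adjusted p = 0.0118), a call lost without mouse 1, without mouse 3 and with the Cy5 orientation only (adjusted p between 0.0501 and 0.055). Pln, the gene of the calcium pump inhibitor phospholamban, which is also a heart gene, fell by 1.20 ± 0.10 (adjusted p = 3.9e-04). Mustn1 fell by 0.78 ± 0.15 (adjusted p = 0.00152), almost the mean of Synpo2. The smoothelin gene Smtn had a mean of 0.20 over its 2 probes (0.32 and 0.09, adjusted p = 0.0834), and it passed under 6 alternatives, among them the Cy5 orientation only (adjusted p = 0.0185). The myosin light chain kinase gene Mylk had a mean of -0.19 (adjusted p = 0.0712), with 5 probes that ranged from -0.61 to 0.14. Mylk passed under 6 alternatives, with adjusted p from 0.00368 with its most changed probe alone to 0.0408, among them the mouse as a random block (adjusted p = 0.0264, or 0.0329 once dye was a term).

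The 1 gene of the list that rose was Itga7, the laminin receptor subunit of muscle. It rose by 0.86 ± 0.21 (adjusted p = 0.00168), with mouse values of 1.03, 0.70, 1.06 and 0.65. In the order of means over the 19 genes and the 3, Itga7 and Myocd were the 2 highest, Synpo2 was the third from the bottom and Notch3 the fifth. The places of Myocd, Synpo2 and Notch3 follow from how they were chosen. Notch3 lay next to Myh11 and within its SD. Of 16 listed genes with an upstream sequence, 2 held a CArG box, Cnn2 and Vcl, and neither passed the test. Of all 27025 upstream sequences 1.22% held one. Only the window from 250 to 31 bases before the start was searched, so CArG boxes elsewhere would be missed. The defining smooth muscle genes Acta2, Tagln and Cnn1 were not among the named probes used here.

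**Figure D2:**
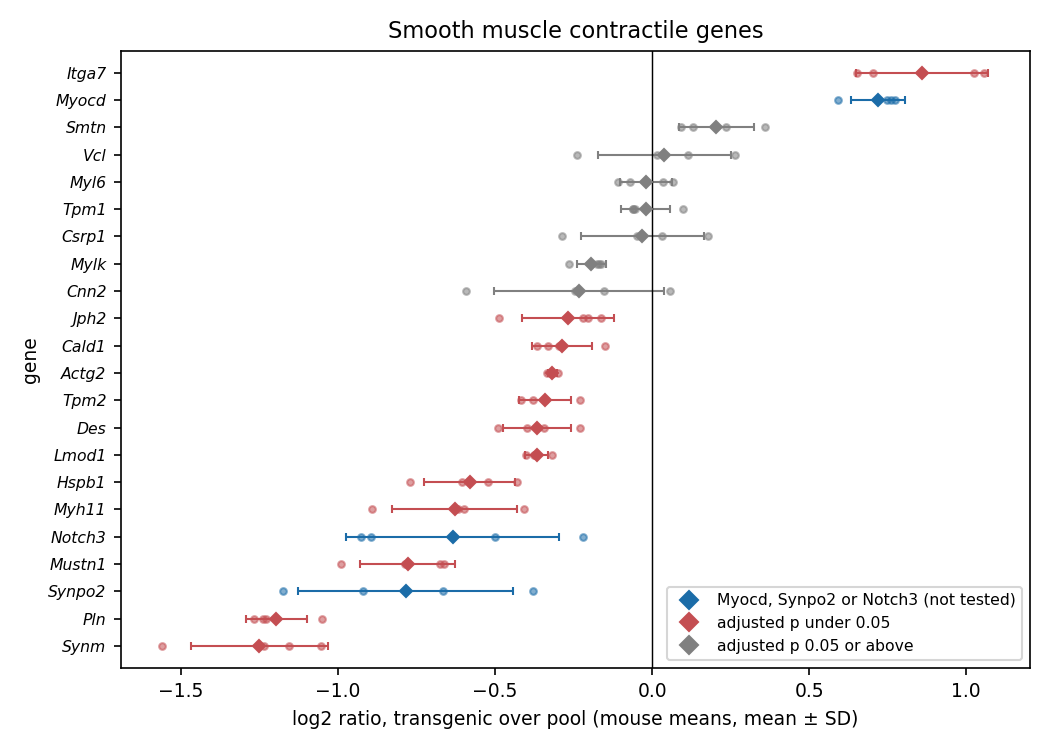
Log2 ratios of transgenic lung over the pool (horizontal axis) for 19 smooth muscle contractile genes with Myocd, Synpo2 and Notch3; small points are the 4 mouse means, diamonds with bars the mean and SD over mice, red for genes with adjusted p under 0.05, grey for the others and blue for the 3 genes, which were not tested. Of the tested genes 11 fell and 1, Itga7, rose, and Myocd lies beside Itga7 at the top. The places of the 3 blue genes follow from how they were chosen.

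Of 29 measured cofactors, regulators and rivals of SRF and myocardin, 9 fell, 2 rose and 18 did not pass (median -0.10). The shares were 31.0% lower and 6.9% higher, against 18.4% and 13.5% of all named genes. Srf itself had a mean of -0.19 ± 0.05 over 2 probes (adjusted p = 0.0738), below 0 in 4 of 4 mice; with the mouse as a random block adjusted p was 0.0427, and with a dye term added 0.0629. Mrtfb, a myocardin relative, was at 0.08 ± 0.24 (adjusted p = 0.589), with mouse 4 at -0.28 and the other mice between 0.16 and 0.22; without the Cy3 array of mouse 4 it was 0.22 (adjusted p = 0.0366). Gata6 was at 0.11 ± 0.23 (adjusted p = 0.425) and Klf4, a repressor of contractile genes, at -0.28 ± 0.36 (adjusted p = 0.141). The range of Klf4 over mice was -0.76 to 0.08.

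Foxo4, a forkhead factor that represses myocardin activity, fell by 0.49 ± 0.19 (adjusted p = 0.00875), and its relative Foxo1 fell by 0.70 ± 0.28 (adjusted p = 0.00516). The LIM protein genes Fhl1 (-0.87 ± 0.35, adjusted p = 0.00445) and Csrp3 (-0.56 ± 0.28, adjusted p = 0.0108) fell, as did Yy1 (-0.54 ± 0.16, adjusted p = 0.00502). The probes of Fhl1 disagreed in size, at -1.43 and -0.18, and its call was lost with placeholder values kept (adjusted p = 0.12). Those of Csrp3 were at -0.815 and -0.312. The 2 genes that rose were Elk1, which encodes an SRF partner that competes with myocardin (0.36 ± 0.16, adjusted p = 0.0187), and Mef2d (0.32 ± 0.09, adjusted p = 0.0159). Leaving out mouse 1, 3 or 4 took the call from Elk1 (adjusted p between 0.0565 and 0.0716). Mef2d lost its call without mouse 1, 2 or 3 and in the Cy3 orientation (adjusted p between 0.0614 and 0.21). The count of higher genes was 0 without mouse 1 or 3 and 1 without mouse 2 or 4.

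Of 26 measured partners of myopodin at Z-discs and dense bodies, 10 fell, 1 rose and 15 did not pass, with a median of -0.16. The shares were 38.5% lower and 3.8% higher, against 18.4% and 13.5% of all named genes. Synpo2l, the striated muscle relative of Synpo2, fell by 0.41 ± 0.06 (adjusted p = 0.00617), with both of its probes low (-0.45 and -0.37). Its mice lay between -0.47 and -0.32, a narrower range than for Synpo2 itself. Actn2, the alpha-actinin of striated muscle, fell by 0.44 ± 0.19 (adjusted p = 0.0112), a call lost without mouse 2 (adjusted p = 0.0508). Bag3 had a mean of -0.20 ± 0.13 (adjusted p = 0.0957), and it passed with the mouse as a random block (adjusted p = 0.0456, or 0.0495 once dye was a term) and under 2 other alternatives.

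The largest falls of that list were in Pdlim3 and Pdlim2, which encode PDZ and LIM domain proteins that bind alpha-actinin. Pdlim3 fell by 0.99 ± 0.23 (adjusted p = 0.00132) and was -1.19, -0.89, -1.17 and -0.71 in mice 1 to 4. Pdlim2 fell by 0.67 ± 0.11 (adjusted p = 0.00175). Tcap, the titin cap gene, fell by 0.54 ± 0.13 (adjusted p = 0.00396) as the mean of probes at -0.92 and -0.17. Pdlim1 rose by 0.49 ± 0.36 (adjusted p = 0.0313), a call lost without mouse 1, 2 or 3, in the Cy3 orientation and with placeholder values kept (adjusted p between 0.053 and 0.128). The count of lower genes was 6 without mouse 2, and 5 of the 26 genes also stand in the list of heart and skeletal muscle genes.

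Synpo2 is also made in heart and skeletal muscle, and Myocd in heart. Heart or skeletal muscle tissue can enter a lung sample with the pulmonary veins or the diaphragm. Of 34 measured genes of heart and skeletal muscle, 22 fell, 0 rose and 12 did not pass, with a median of -0.40. The share was 64.7% lower, against 18.4% lower and 13.5% higher of all named genes. At an unadjusted limma p under 0.05, 24 fell and 0 rose, while 44.5% of all named genes passed in either direction. The largest falls were in Mb (-1.81 ± 0.60), Ckmt2 (-1.40 ± 0.40), Myh7 (-1.16 ± 0.44, adjusted p = 0.00301) and Tnnc1 (-1.03 ± 0.33). Means were below 0 for 30 of the 34 genes. Among those that did not pass, the heart marker Myl2 was at 0.03 ± 0.19 (adjusted p = 0.814). The skeletal muscle gene Mylpf was at 0.12 ± 0.22 (adjusted p = 0.37). The list medians were -0.41, -0.39, -0.56 and -0.29 in mice 1 to 4, and mouse 4 was highest there as it was for Synpo2. The lowest mouse was mouse 3 in the list and mouse 1 in Synpo2. The part of striated muscle RNA in the Synpo2 ratio was not tested.

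The Notch pathway was divided. Of 41 measured genes other than Notch3, 9 rose, 6 fell and 26 did not pass, and the median was 0.06. Shares of 22.0% higher and 14.6% lower stand against 13.5% and 18.4% of all named genes. The count of higher genes depended on single mice: it was 3 without mouse 1 and 5 without mouse 2 or 3, and 3 on the Cy3 arrays alone. The count of lower genes was 10 with quantile normalization or with the mouse as a random block.

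All 4 receptors had means below 0. Notch2, which is also made in smooth muscle, fell by 0.73 ± 0.29 (adjusted p = 0.0049), and its mice stood at -1.15, -0.55, -0.71 and -0.52. That order differs from Notch3, since mouse 1 was the lowest for Notch2. Notch1 was at -0.29 ± 0.25 (adjusted p = 0.0745) and Notch4, the endothelial receptor, at -0.34 ± 0.31 (adjusted p = 0.072). For both of these mouse 4 was lowest and mouse 2 the next. With the mouse as a random block over 8 arrays both passed (adjusted p = 0.0251 for each), also with a dye term (adjusted p = 0.0369 and 0.0411).

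The ligands and the processing enzymes gave mixed values. Jag1, the ligand known to signal to Notch3 in arteries, was at -0.02 ± 0.19 (adjusted p = 0.898), with mouse 2 at 0.26 and the others between -0.14 and -0.09. Jag2 rose by 0.37 ± 0.09 (adjusted p = 0.0101), as the mean of probes at 0.78 and -0.04, and the call was lost without mouse 1 (adjusted p = 0.053) and on the Cy3 arrays alone (adjusted p = 0.0903). Dll1 was at -0.24 ± 0.14 (adjusted p = 0.0637), and it passed with quantile normalization (adjusted p = 0.0478) and in the Cy3 orientation (-0.45, adjusted p = 0.0311). Aph1a, a gamma-secretase subunit gene, had the largest fall of the list, by 1.18 ± 0.28 (adjusted p = 0.00116), with 4 of 4 mice at or below -0.90. Fbxw7, whose product marks the cut receptor for destruction, fell by 0.47 ± 0.16 (adjusted p = 0.00726), and the corepressor gene Tle1 fell by 0.50 ± 0.18 (adjusted p = 0.00687).

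In the nucleus, Rbpj rose by 0.33 ± 0.18 (adjusted p = 0.0283), a call that was lost when any 1 of the 4 mice was left out and in the Cy3 orientation (adjusted p between 0.0545 and 0.0976). Of 6 measured Hes and Hey genes, only some of which Notch receptors switch on, 2 rose and 4 did not pass. Hes7 rose by 1.04 ± 0.12 (adjusted p = 6.1e-04), with mice at 0.90, 1.17, 0.97 and 1.10, and Hes6 rose by 0.42 ± 0.05 (adjusted p = 0.00563). Hes6 missed the threshold on the Cy3 arrays alone (adjusted p = 0.219). Hes1 was at 0.26 ± 0.23 (adjusted p = 0.0826, and 0.0398 without mouse 3), Hes5 at 0.23 ± 0.12 (adjusted p = 0.0623) and Hey2 at 0.22 ± 0.16 (adjusted p = 0.0818). Hey1 was the only one of the 6 with a mean below 0, at -0.23 ± 0.09 (adjusted p = 0.0512). With the mouse as a random block Hes1 passed with and without a dye term (adjusted p = 0.0468 and 0.0308). Hey1 and Hey2 passed without that term (adjusted p = 0.0321 and 0.0388) but not with it (adjusted p = 0.059 and 0.062). Dtx3, a gene of the Deltex family of Notch regulators, rose by 0.55 ± 0.18 (adjusted p = 0.00533). The RBPJ site stood upstream of 4 of the 35 listed genes with a sequence, Hes5, Hes7, Hey2 and Lfng, of which Hes7 passed the test. Of all upstream sequences 4.73% held this site.

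**Figure D3:**
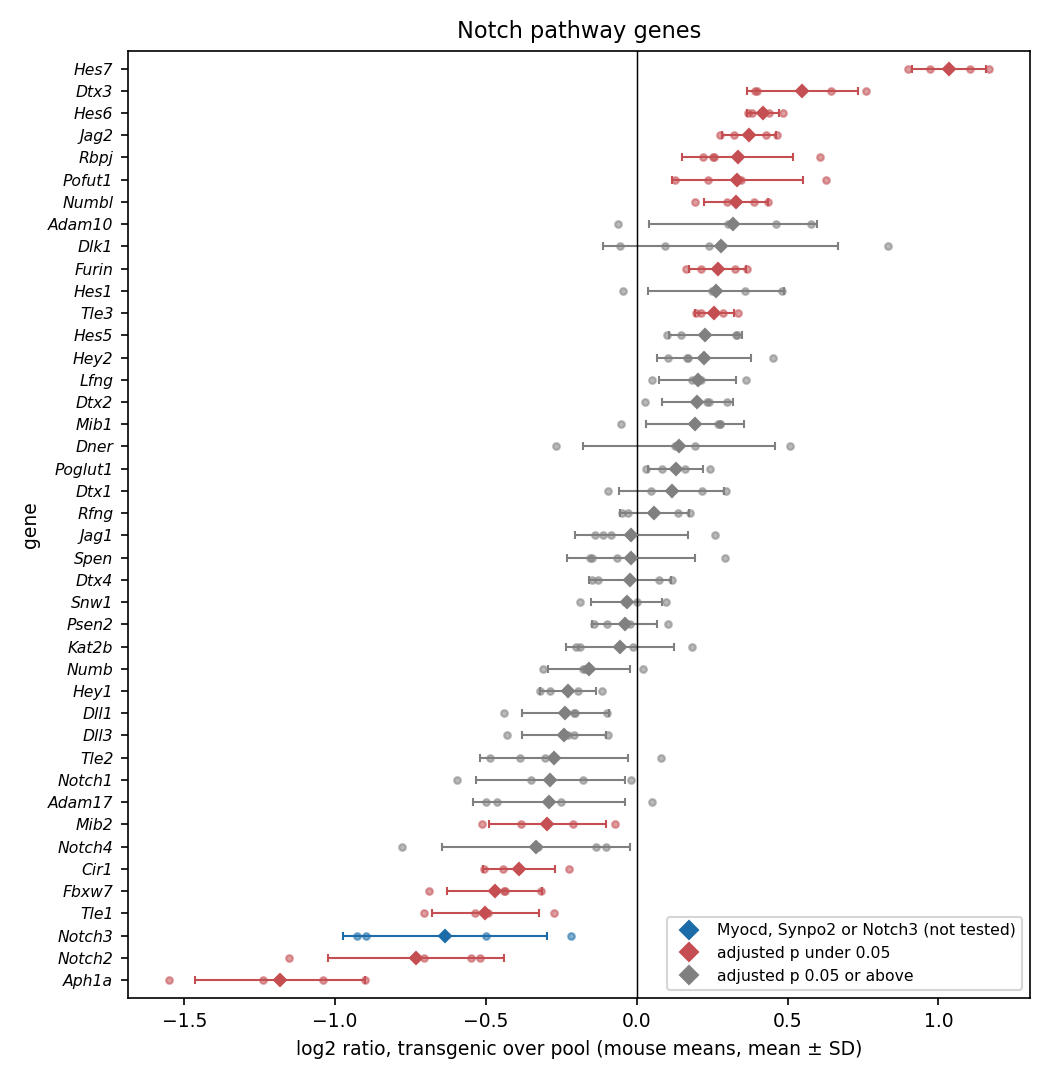
Log2 ratios of transgenic lung over the pool (horizontal axis) for 41 Notch pathway genes and Notch3; small points are the 4 mouse means, diamonds with bars the mean and SD over mice, red for adjusted p under 0.05, grey for the others and blue for Notch3, which was not tested. Among the tested genes 9 rose, led by Hes7 at 1.04, and 6 fell, led by Aph1a at -1.18 and Notch2 at -0.73.

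Of 15 measured genes of pericytes and other vascular mural cells, where Notch3 is also made, 4 fell, 0 rose and 11 did not pass. Their median was -0.20, and 26.7% were lower, against 18.4% lower and 13.5% higher of all named genes. At an unadjusted limma p under 0.05, 5 fell and 0 rose, while 44.5% of all named genes passed in either direction. The 4 falls include Des, which also stands in the smooth muscle list. Lmcd1 fell by 0.95 ± 0.40 (adjusted p = 0.00448) and was -0.60, -1.25, -0.60 and -1.34 in mice 1 to 4, so that mice 2 and 4 were the low ones, as for Notch3. The endothelin receptor gene Ednrb fell by 0.87 ± 0.33 (adjusted p = 0.0038) as the mean of probes at -1.56 and -0.19. Ebf1 fell by 0.36 ± 0.18 (adjusted p = 0.0228) as the mean of probes at -0.68, -0.58 and 0.20. It lost the call without mouse 1, 2 or 4 and in the Cy3 orientation (adjusted p between 0.0601 and 0.0938). The probe at 0.20 lies in a stretch of annotation numbers where 11 was not the best offset. Its name is therefore less certain than those of the low probes.

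The pericyte markers Pdgfrb and Rgs5 did not pass on mouse means. With the mouse as a random block both did (adjusted p = 0.0318 and 0.0435), and with a dye term added neither did (adjusted p = 0.0507 and 0.0577). Pdgfrb, the receptor that marks pericytes, was at -0.27 ± 0.25 (adjusted p = 0.0871), with mice at -0.05, -0.39, -0.08 and -0.58. Its ligand gene Pdgfb was at 0.02 ± 0.27 (adjusted p = 0.923). Rgs5 was at 0.84 ± 1.14 (adjusted p = 0.122), with mice at 1.67, -0.60, 1.83 and 0.46, the widest range of the pericyte genes named here; without mouse 2 it was 1.32 (adjusted p = 0.0208).

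Lists of other cell types differed in part in their order of mice. Mural list medians were -0.03, -0.26, -0.12 and -0.47 in mice 1 to 4, and those of fibroblast genes -0.01, -0.49, 0.17 and -0.57. Endothelial medians were -0.01, -0.29, 0.17 and -0.17. In these 3 lists mice 2 and 4 had the lower medians, as they had the lower values for Notch3. The same held for the macrophage list (1.11, 0.69, 0.88 and 0.73 in mice 1 to 4). That order was therefore not particular to vascular or stromal lists. The mesothelial list had its higher medians in mice 2 and 4 (0.22, 0.73, 0.02 and 0.57). The smooth muscle medians, at -0.23, -0.30, -0.30 and -0.34, differed little between mice. Beside the 13.5% higher and 18.4% lower of all named genes, the endothelial list had 13.3% and 26.7%, the fibroblast list 10.5% and 21.1%, the mesothelial list 50% and 16.7% and the macrophage list 60% and 20%. Of 15 endothelial genes 2 rose and 4 fell, the latter led by Icam2 (-0.99 ± 0.48). Of 19 fibroblast genes 2 rose, S100a4 and Cd34, and 4 fell, led by Inmt (-1.57 ± 0.43) and Ogn (-1.41 ± 0.43). Of 6 mesothelial genes 3 rose, led by Msln (1.31 ± 0.17), and 1 fell. Of 10 macrophage genes 6 rose, led by Chil3 (4.43 ± 0.41) and Ctsk (2.72 ± 0.67), and 2 fell, Marco and Fabp4. The part of these cell types in the ratios of Notch3 and Synpo2 was not tested. The lung markers Sftpc (-0.13, adjusted p = 0.381), Sftpb (0.37, adjusted p = 0.0214) and Ager (-0.78, adjusted p = 0.00258) were measured; ratios do not show how abundant a marker is.

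**Figure D4:**
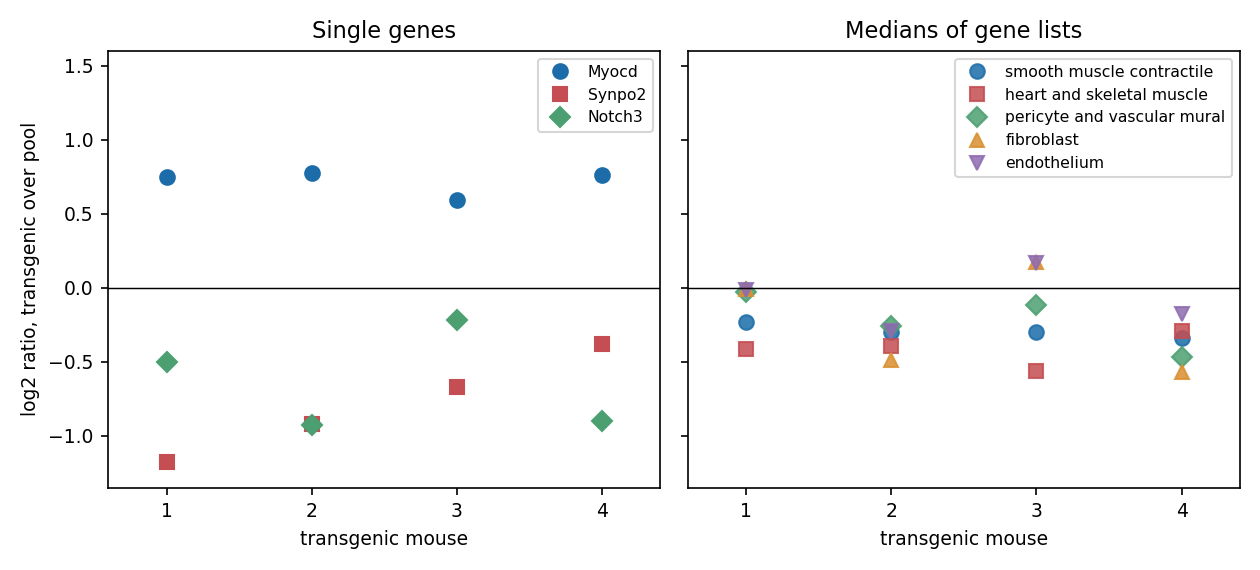
Log2 ratios of transgenic lung over the pool (vertical axis) in each of the 4 transgenic mice, for Myocd, Synpo2 and Notch3 (left) and for the medians of 5 gene lists (right). Notch3 is lowest in mice 2 and 4, as are the mural, fibroblast and endothelial medians and, by a small step, the smooth muscle medians. Synpo2 is lowest in mouse 1 and Myocd is nearly level.

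The 3 genes did not share a pattern over the 8 arrays. Pearson's r was -0.42 between Myocd and Synpo2, -0.06 between Myocd and Notch3 and -0.23 between Synpo2 and Notch3. The arrays share 4 mice, 1 pool and 2 dye orientations, so these values are descriptive. Among 8644 other named genes measured on all 8 arrays, the 5 most like Myocd were Cox8b (r = 0.98), S100a11 (0.98), Odc1 (0.96), Stard3 (0.96) and Hint1 (0.95). Cox8b, a subunit gene of cytochrome oxidase in striated muscle, followed the same ups and downs at a level below 0 (-0.60 ± 0.16). The other 4 had means between -0.15 and 0.13, none past the threshold.

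Most like Synpo2 were Irf5 (r = 0.98), Dhdds (0.96), Gas2l1 (0.96), Cacng2 (0.95) and Spata4 (0.94). Irf5, an interferon regulatory factor gene, stood at -0.12, 0.07, 0.35 and 0.64 in mice 1 to 4, the same order as Synpo2 at a higher level, and none of the 5 passed the test. Most like Notch3 were Skap2 (r = 0.97), Cd151 (0.97), Zfp46 (0.97), Col6a2 (0.96) and Ski (0.96). Ski, the gene of a repressor of TGF-beta signalling, was the only one of these 5 past the threshold (-0.39 ± 0.15, adjusted p = 0.0131). Col6a2, a collagen VI chain gene, was at 0.32, -0.07, 0.54 and -0.15 in mice 1 to 4.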

How the data were processed

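The members and gene lists were chosen with earlier results of these data known. The authors deposited 1 log2 ratio for each probe of each 2-colour array. Total RNA was reverse transcribed and labelled indirectly with the dyes, per the labels' protocols. How background was corrected and arrays were normalized is not given in the sources used here, and spot intensities were not used. Of 20794 probes, 498 values beyond 10 in size (placeholders) were set to missing and 706 were missing as deposited, which left 20585 to 20729 values per array, with array medians from -0.09 to 0.01. Scale and direction were read from the values and labels, and centring by the authors stays unknown. Dye-swapped arrays correlated at 0.685 in mouse 1, 0.642 in mouse 2 and 0.587 in mouse 3. In mouse 4 the correlation was 0.389, so its 2 arrays agreed least.

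Annotation numbers up to 20237 plus 11 gave rows, which named 12296 probes; 0 had several genes and 8498 are unnamed here. At 11 the Spearman correlation over 4781 pairs of probes of a gene was 0.221, against at most 0.0535 at the other offsets up to 60 either way, and it was best in 18 of 20 stretches of 1000 numbers. The exceptions start at 8000 and 18000 and hold Myh11, Hes1, Jag1, Dcn and 1 probe each of Srf, Dtx3 and Ebf1. The names of these probes, and so the values given under them, are less certain. Symbols were updated through gene identifiers with RefSeq (GRCm38.p6). Upstream sequences of Synpo2 and Notch3 came from the same source.

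Arrays of a mouse and probes of a gene were averaged, so n = 4 mice. Means were compared with 0 by limma 3.58.1 under R 4.3.3 (Benjamini-Hochberg, adjusted p under 0.05). The pool is 1 control sample, so its own spread is left out. The 4 mice have separate numbers in the labels. Scripts were tested on simulated data, and summaries used Python 3.11.15 with pandas 2.3.3. Of 333 genes in 10 lists, 204 were measured. Named genes are the 3, 37 fixed genes of these pathways (27 measured), up to 4 called genes per direction of each list, and the 5 genes with the highest correlation with each of the 3 over 8 arrays. Alternatives left out each mouse, used 1 dye orientation, centred or quantile normalized arrays, or kept placeholders. Others took the mouse as a random block, with or without a dye term, or used 1 probe per gene. That probe was the one with the largest mean ratio in size, a choice by the tested value that favours calls. Leaving out the Cy3 array of mouse 4 was added after seeing the data.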

Additional observations from a re-analysis of the deposited data

Results flagged for a closer look

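With 4 mice, a mouse was singled out where its gap to the nearest other mouse took more of the whole range than Dixon's critical value allows, which chance alone gives in about 1 of 20 genes; 79 genes were checked. Myocd was singled out for mouse 3 at 0.59, against 0.75 to 0.78 in the other mice, a small step in a narrow range. Among genes around it, Mrtfb was at -0.28 in mouse 4 (0.16 to 0.22 in the others) and Mylk at -0.26 in mouse 1 (-0.18 to -0.16). In the Notch pathway, Jag1 was at 0.26 in mouse 2 (-0.14 to -0.09 in the others) and Rbpj at 0.61 in mouse 3 (0.22 to 0.26). Of genes of other cell types, Inmt was at -2.21 in mouse 4 (-1.40 to -1.28) and Marco at -2.96 in mouse 3 (-2.46 to -2.36).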

How the results depend on the processing

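Synpo2 and Notch3 stayed below 0 and Myocd above 0 under the alternatives run for them: each mouse left out, 1 dye orientation, centring, quantile normalization, placeholders kept, and without the Cy3 array of mouse 4. The random block and the choice of probe were run only for the other genes. Leaving out 1 mouse gave means of 0.70 to 0.76 for Myocd, -0.92 to -0.66 for Synpo2 and -0.77 to -0.54 for Notch3. No paired analysis was possible because 1 pool is the only control, so that no transgenic mouse has a control mouse of its own; only the 2 arrays of a mouse could be paired. Of 988 alternative values of the 76 genes named from the fixed genes and the lists, 913 kept their side of the threshold. Of the others, 41 lost a call, 34 gained one and 0 reversed. A change of sign was counted as a reversal only where the gene passed in at least 1 of the 2 fits compared. Genes that did not pass could change sign, as Jag1 did with 1 mouse left out (-0.11 to 0.02).

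On the Cy5 arrays alone Myocd was 0.85, and genes called higher numbered 2 in the smooth muscle, 2 in the Z-disc, 1 in the heart and skeletal muscle and 4 in the endothelial list. On the Cy3 arrays alone Myocd was 0.59, and higher calls numbered 1 in the SRF, 3 in the Notch, 0 in the Z-disc, 1 in the mural and 1 in the endothelial list. Quantile normalization gave 2 higher smooth muscle and 10 lower Notch genes. The mouse as a random block gave the same counts for these and 1 higher mural gene; with a dye term there were 2 higher smooth muscle genes. That count was also 2 without the Cy3 array of mouse 4 and with the most changed probe of each gene. The latter gave 1 higher heart and skeletal muscle gene. With placeholders kept, 0 Z-disc genes were higher. Without a dye covariate 84 probes differed between mice.

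Leaving out 1 mouse gave 7 to 9 lower smooth muscle genes, 0 to 1 higher SRF, 3 to 8 higher Notch, 0 to 1 higher and 6 to 10 lower Z-disc, 0 to 1 higher mural, 1 to 2 higher endothelial and 2 to 5 higher mesothelial genes, and 0 to 1 probes with a dye difference. Signal over background is unknown, and the 4 mice and 1 pool limit the precision.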
